A study of Mus musculus with 12 samples.

Results

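Transcripts of 10 target genes of the transcription factor p53 were measured in bulk gastrocnemius, a calf muscle, of mice that lacked ankyrin-B in skeletal muscle and of their littermates. The genes were Cdkn1a, Ccng1, Plk2, Mdm2, Zmat3, Bax, Phlda3, Trp53inp1, Eda2r and Sesn1. They were taken by symbol from a table of 24528 genes, and all 10 were among the 12213 that passed a filter on low values. The KO group held 6 male mice aged 4 months with the genotype Ank2f/f; HSA-Cre+, in which Cre is driven by the human skeletal actin promoter that is active in muscle fibres. The WT group held 6 male littermates of the same age and cages with the genotype Ank2f/f, so both groups carried the floxed alleles and only the KO mice carried Cre. Each library came from 1 mouse, and the tissue held all cell types of the muscle, not fibres alone.

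p53, encoded by Trp53 in mice, is held at a low level by the ubiquitin ligase Mdm2 and accumulates when cells sense DNA damage or other stress. It binds DNA as a tetramer and raises transcription of genes that arrest the cell cycle, promote cell death, restrain growth signals or feed back on p53 itself. Several of its targets, Cdkn1a foremost, are also controlled without p53. In muscle Cdkn1a is known from the cell-cycle exit of myoblasts and from fibres that have lost their nerve.

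The values are the authors' log2 values, on a scale that compresses differences between low values. Reads were estimated from them by undoing the transformation, and the totals ran from 13397586 to 18705727 in KO and from 12283670 to 16907227 in WT. Ank2 itself averaged 33.1% ± 7.12 of the WT mean in KO (SD, n = 6), and all 6 KO libraries lay below all 6 WT libraries (log2 difference -1.15, SE 0.14, limma adjusted p = 0.000881). Of the 10 muscle fibre markers, all passed the filter, and their summed scaled reads ran from 2903110 to 3567170 in KO and from 3015570 to 3927160 in WT. KO 2 stood apart: without it 682 genes were called higher and 833 lower, against 381 and 376 with it. Leaving out KO 4 (457 and 508) or WT 4 (453 and 425) also raised both numbers, by less. KO 2 had the fewest estimated reads of KO, 13397586, and the fewest genes above the lowest deposited value. It had 14836 of these, against 15256 to 15794 in the other KO libraries and 14746 to 15056 in WT. The part of depth was not tested. The calls of the target and related genes that turn on KO 2 are given without it as well. A bulk value cannot tell fewer cells of a type from less RNA per cell.

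Cdkn1a was the only one of the 10 genes whose transcript differed between the groups past the test, and it was higher in KO. It encodes p21, the inhibitor of cyclin-dependent kinases that arrests the cell cycle, and lies on the plus strand at chr17:29090976-29100727 (mm10). The deposited log2 value had a minimum of 8.77, a median of 9.71 and a maximum of 10.08 in KO, against 8.34, 8.69 and 8.96 in WT. In KO, 5 of 6 libraries lay above every WT library, and KO 2 at 8.77 lay inside the WT range, so the groups overlapped by that library. Cdkn1a rose by 0.90 on the log2 scale (SE 0.20; limma with Benjamini-Hochberg adjustment over 12213 genes, adjusted p = 0.0285; exact two-sided permutation p = 0.00866). On scaled reads the KO mean was 216% ± 71.5 of the WT mean, with KO 6 at 308%, KO 1 at 258%, KO 4 at 236%, KO 3 at 228%, KO 5 at 159% and KO 2 at 108%. The WT libraries ran from 73.4% to 126% with an SD of 23.9 (n = 6), and each library's value rested on 211 to 1109 estimated reads.

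The call of Cdkn1a depended on single libraries, while its size with any 1 library left out lay between 0.79 and 1.06. Leaving out KO 1, KO 3 or KO 6 gave adjusted p = 0.0751, 0.0691 and 0.060, and leaving out WT 2, WT 5 or WT 6 gave 0.0561, 0.0583 and 0.0558 (limma). Over all tested genes these fits called 106 to 192 higher and 88 to 174 lower, against 381 and 376 with all libraries. Without KO 2 the difference of Cdkn1a was 1.06 with limma adjusted p = 0.000642, the lowest over all alternatives. KO 2 was the lowest KO library, so leaving it out can only raise the difference. Exons of Cdkn1a share 7.68% of their bases with an antisense gene on the minus strand, and the libraries do not mark strand.

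**Figure D1:**
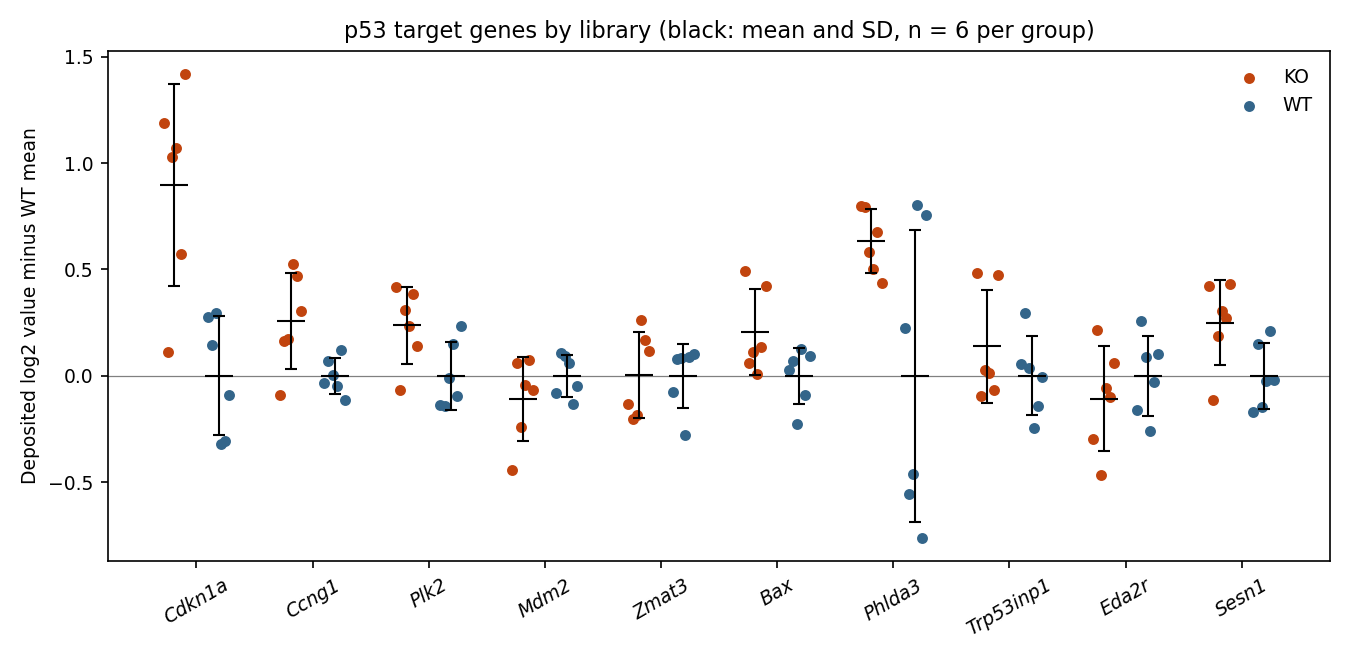
Deposited log2 value of each of the 10 p53 target genes in every library, as the difference from that gene's WT mean. KO points stand left of WT points, and black marks show the mean and SD of 6 libraries per group; 5 of 6 KO libraries of Cdkn1a lie above all WT libraries, and the Phlda3 points of WT fall far apart.

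The DNA before the start sites of these genes was read to show where the p53 motif stands, since Cdkn1a was the gene that changed. RefSeq windows of 300 bases (GRCm38.p6), running from 250 bases before a start site to 50 after, were at hand for 8 of the 10 genes, with 10 windows in all because Cdkn1a and Sesn1 have 2 annotated starts each. Zmat3 and Trp53inp1 had no window. The motif searched was the p53 consensus decamer, which consists of purines, a C, A or T bases, a G and pyrimidines, and reads the same on both strands; only exact matches were counted. At least 1 match stood in 5 of the 10 windows, those of Bax, Ccng1, Mdm2, the upstream start of Cdkn1a and the downstream start of Sesn1, while 8.36% of all 32851 windows hold one. The upstream Cdkn1a window held 2 matches separated by 12 bases, and a pair within 13 bases occurs in 24 of all windows, or 0.0731%. Directly after the second match stands tgacatgttc, which departs from the consensus only at its first base and was not counted. The genes were gathered as known p53 targets, so these matches are a description of them and no result of the comparison. Gene-level values do not show which start was used. The upstream Cdkn1a window, chr17:29090729-29091028 on the plus strand, is shown in full with both decamers in capitals.
Cdkn1a, upstream start: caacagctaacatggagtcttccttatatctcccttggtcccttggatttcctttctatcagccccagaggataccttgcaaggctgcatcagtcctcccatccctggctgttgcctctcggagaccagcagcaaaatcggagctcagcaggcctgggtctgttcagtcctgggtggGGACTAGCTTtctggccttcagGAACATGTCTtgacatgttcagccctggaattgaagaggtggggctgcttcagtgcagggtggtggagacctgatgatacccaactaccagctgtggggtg

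The matching stretches of the other 4 genes are set side by side for comparison, 60 bases each in the direction of the gene, with the decamer in capitals. They lie at chr10:117710910-117710969 (minus strand, Mdm2), chr11:40755437-40755496 (minus strand, Ccng1), chr7:45467065-45467124 (minus strand, Bax) and chr10:41887241-41887300 (plus strand, Sesn1). Their decamers begin 186, 185, 201 and 173 bases before the start site in that order.
Mdm2: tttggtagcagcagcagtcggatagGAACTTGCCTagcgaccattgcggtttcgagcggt
Ccng1: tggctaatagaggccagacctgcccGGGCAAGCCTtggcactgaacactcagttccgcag
Bax: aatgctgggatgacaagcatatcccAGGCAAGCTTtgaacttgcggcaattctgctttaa
Sesn1, downstream start: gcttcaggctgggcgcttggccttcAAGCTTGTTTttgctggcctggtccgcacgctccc

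Of the 10 genes, 1 was called higher and none lower, against 3.12% of all tested genes called higher and 3.08% called lower. Before adjustment, 6 of the 10 had p at or under 0.05, against 26.0% of all tested genes. All 6 were higher in KO: Cdkn1a, Ccng1, Plk2, Bax, Phlda3 and Sesn1. Estimates were positive for 8 of the 10 genes, against 47.5% of all tested genes, and their median was 0.22, against -0.01 for all tested genes. The libraries of the groups overlapped in each of the 10 genes, while in 2.47% of tested genes they did not. The 10 genes were chosen with earlier results of these data known, so these shares are descriptions and no test of the set.

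Among the other cell-cycle genes, Ccng1 and Plk2 had positive estimates that did not pass the test. Ccng1 encodes cyclin G1, which brings a phosphatase to Mdm2, and lies at chr11:40748552-40755311 on the minus strand. Its log2 value had a minimum of 13.89, a median of 14.22 and a maximum of 14.51 in KO, against 13.87, 13.97 and 14.11 in WT. The KO libraries other than KO 1 lay above every WT library, 5 of 6 in all, while KO 1 at 13.89 lay near the bottom of the WT range. The difference was 0.26 (SE 0.10, limma adjusted p = 0.128; exact permutation p = 0.0281), and the KO mean was 121% ± 18.7 of the WT mean. It passed the test after quantile normalization, with 0.35 and adjusted p = 0.0372, the lowest of its alternatives, whose highest was 0.225.

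Plk2 encodes a polo-like kinase and lies at chr13:110395046-110400844 on the plus strand. Its log2 value had a minimum of 7.61, a median of 7.94 and a maximum of 8.09 in KO, against 7.53, 7.62 and 7.91 in WT. In KO, 3 of 6 libraries lay above all of WT, and KO 2 was the lowest of KO. The difference was 0.24 (SE 0.09, limma adjusted p = 0.122; exact permutation p = 0.0433). Without KO 2 it was 0.30 and passed the test (limma adjusted p = 0.0335). The other alternatives gave adjusted p up to 0.244. Leaving out the lowest KO library can only raise this difference, and that fit was singled out by its calls.

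Mdm2 and Zmat3, whose products act on p53 or on RNA, showed no difference past the test. Mdm2, the ubiquitin ligase that marks p53 for degradation, lies at chr10:117688875-117710758 on the minus strand. Its log2 value had a minimum of 9.65, a median of 10.04 and a maximum of 10.17 in KO, against 9.96, 10.10 and 10.20 in WT. The lowest value was that of KO 1, and the remaining KO libraries except KO 3 lay within the WT range. The difference was -0.11 (SE 0.09, 95% interval -0.30 to 0.08, limma adjusted p = 0.456). Zmat3 encodes a zinc-finger protein that binds RNA and lies at chr3:32334792-32366014 on the minus strand. The Zmat3 log2 value ran from 7.78 to 8.24 in KO with a median of 7.97, against 7.70 to 8.08 in WT with a median of 8.06. KO 4, KO 5 and KO 6 lay above all of WT and the other KO libraries within its range, and the difference of the means was 0.00 (SE 0.10, 95% interval -0.20 to 0.21, limma adjusted p = 0.983).

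Bax, Phlda3, Trp53inp1 and Eda2r are tied to cell death or survival signals, and none of them passed the test. Bax, which opens pores in the outer mitochondrial membrane, lies at chr7:45461697-45466898 on the minus strand. Its log2 value had a minimum of 8.10, a median of 8.22 and a maximum of 8.59 in KO, against 7.87, 8.14 and 8.22 in WT. KO 1 at 8.59 and KO 6 at 8.52 stood well above the remaining KO libraries, of which KO 5 lay just above WT and KO 2, KO 3 and KO 4 within its range. The difference was 0.21 (SE 0.09, limma adjusted p = 0.172; exact permutation p = 0.0736). A predicted gene on the same strand shares 12.2% of the exon bases of Bax.

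Phlda3, a repressor of the kinase Akt, was spread widely in WT and narrowly in KO, a difference in spread that was not tested. It lies at chr1:135766119-135769136 on the plus strand and was one of the most abundant of these transcripts. In KO its log2 value had a minimum of 11.79, a median of 11.99 and a maximum of 12.16, against 10.60, 11.24 and 12.16 in WT. The KO libraries lay close together, whereas WT 4 at 12.16 and WT 6 at 12.11 matched the highest KO libraries, WT 1 lay at 11.58, and WT 2, WT 3 and WT 5 lay at 10.80, 10.90 and 10.60. The SD was 0.15 in KO and 0.69 in WT, a ratio of 0.219, and it was the only one of the 10 genes with a smaller SD in KO. The difference of 0.63 was the second largest after Cdkn1a, but its error was large (SE 0.26, 95% interval 0.06 to 1.20, limma adjusted p = 0.157; exact permutation p = 0.0736). On scaled reads the highest library was 1.29 times the lowest in KO and 3.08 times the lowest in WT.

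Trp53inp1 encodes a stress-induced nuclear protein that also takes part in autophagy, and lies at chr4:11156431-11174379 on the plus strand. Its log2 value ran from 8.22 to 8.80 in KO with a median of 8.34, against 8.08 to 8.62 in WT with a median of 8.34. The medians coincided, and only KO 1 at 8.80 and KO 6 at 8.79 stood above WT. The difference was 0.14 (SE 0.11, 95% interval -0.10 to 0.38, limma adjusted p = 0.46). Eda2r, a receptor of the tumour necrosis factor family that binds ectodysplasin A2, lies at chrX:97333840-97377216 on the minus strand. The Eda2r log2 value ran from 8.62 to 9.30 in KO with a median of 9.01, against 8.83 to 9.34 in WT with a median of 9.12. KO 1 and KO 3 lay below WT and the others within it. Its difference was -0.11 (SE 0.11, 95% interval -0.34 to 0.13, limma adjusted p = 0.561).

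Sesn1 encodes a sestrin, a stress-induced restraint on the growth kinase mTORC1, and lies at chr10:41809935-41908424 on the plus strand. Its log2 value had a minimum of 8.49, a median of 8.89 and a maximum of 9.03 in KO, against 8.44, 8.58 and 8.82 in WT. In KO, 4 of 6 libraries exceeded all of WT, and KO 2 was again the lowest of KO. The difference was 0.25 (SE 0.09, limma adjusted p = 0.114; exact permutation p = 0.039). Without KO 2 it was 0.32 and passed the test (limma adjusted p = 0.0189). The other alternatives gave adjusted p up to 0.231. As for Plk2, leaving out the lowest KO library can only raise the difference.

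**Figure D2:**
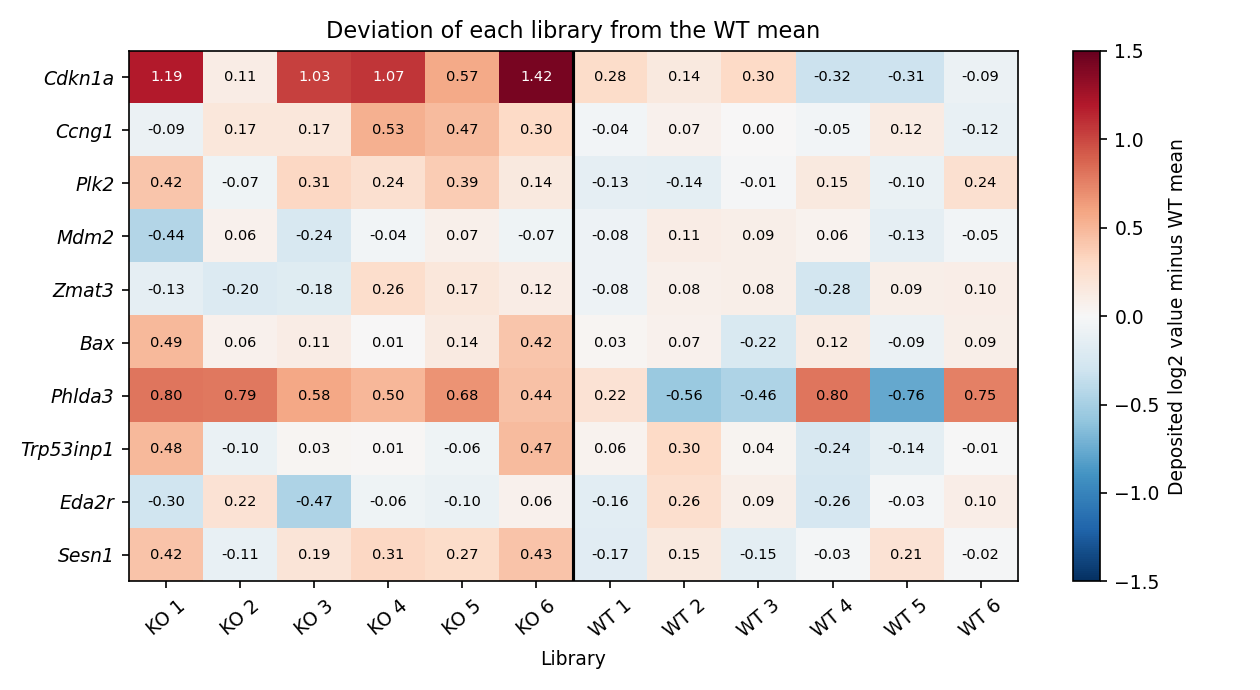
Difference of every library from the WT mean of each gene, on the deposited log2 scale, with genes in rows and libraries in columns (KO left, WT right). The Cdkn1a row is positive in all 6 KO libraries, whereas KO 1 holds both the highest Bax and Plk2 values and the lowest Mdm2 and Ccng1 values among KO.

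The order of the KO libraries differed from gene to gene. KO 1 had the highest value of KO for Bax, Phlda3, Trp53inp1 and Plk2 and the lowest for Mdm2 and Ccng1. KO 6 had the highest Cdkn1a and Sesn1 and the lowest Phlda3. KO 4 had the highest Ccng1 and Zmat3 and the lowest Bax. KO 2 had the lowest value for 5 genes, Cdkn1a, Sesn1, Zmat3, Trp53inp1 and Plk2, and the highest for Eda2r. In KO 6 and in KO 5, 6 of the 10 genes exceeded every WT library, in KO 1 this held for 5, in KO 4 for 4, in KO 3 for 3, and in KO 2 for 1, which was Ccng1.

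Per length, the 10 genes spanned a wide range of levels. Scaled reads per kb of exon averaged 5554 ± 858 in KO and 4598 ± 277 in WT for Ccng1, the highest (SD, n = 6 each). Phlda3 followed at 2560 ± 272 in KO and 1789 ± 870 in WT, apart from both neighbours in either group. Cdkn1a came next in KO at 195 ± 64.7, where its libraries overlapped those of Mdm2 after it, and stood below Mdm2 and Bax in WT at 90.5 ± 21.6, where they overlapped those of Bax and Eda2r. Mdm2 averaged 183 ± 26.1 in KO and 197 ± 14.7 in WT. The lowest was Zmat3, with 14.8 ± 3.03 in KO and 14.7 ± 2.11 in WT, below all libraries of Plk2 in both groups. Between these, Mdm2 with Bax and the neighbours from Sesn1 to Plk2 overlapped in KO, and in WT those from Bax to Sesn1 and Trp53inp1 with Plk2 overlapped.

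**Figure D3:**
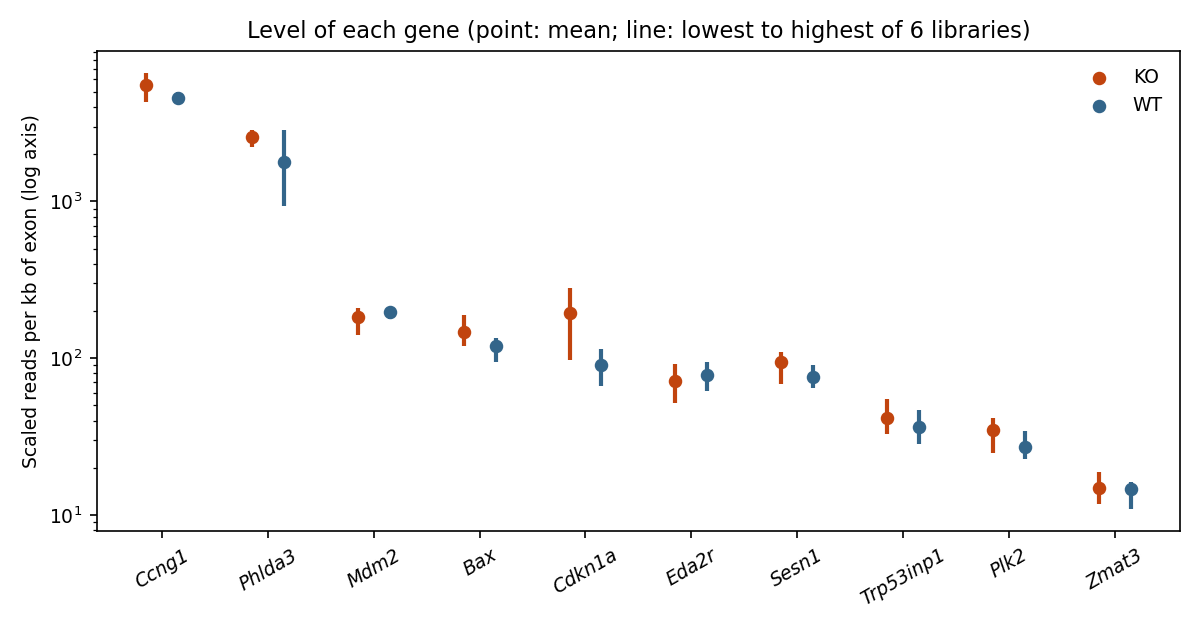
Level of each gene as scaled reads per kb of exon on a log axis, with KO left of WT, points at the mean and lines from the lowest to the highest of 6 libraries. Cdkn1a is the gene whose KO range extends farthest above its WT range, and Phlda3 has a wide range in WT.

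Neither Trp53 itself nor Mdm4 passed the test. Trp53 had a log2 value of 8.41 ± 0.08 in KO and 8.35 ± 0.15 in WT (SD, n = 6 each), a difference of 0.06 (SE 0.07, 95% interval -0.09 to 0.22, limma adjusted p = 0.627). Mdm4, the relative of Mdm2 that restrains p53, gave 0.11 (SE 0.09, limma adjusted p = 0.498). Of 21 listed genes of p53 and its regulators, 19 were tested, 1 rose and 1 fell. The ribosomal protein gene Rpl11, whose product can bind Mdm2, rose by 0.37 (SE 0.11, adjusted p = 0.0483). Ribosomal protein genes have near-identical copies in the genome, and how shared reads were divided is not known. Trp63, a relative of Trp53, fell by 0.37 (SE 0.10, adjusted p = 0.0392), or by 0.58 on log2 of scaled reads with a pseudocount of 1, with 5 of 6 KO libraries below all of WT. The median of the list was -0.01, equal after rounding to that of all tested genes.

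Other p53 targets moved in both directions. Of 40 listed, 34 were tested, 1 rose and 2 fell, with a median of 0.01. Gadd45a, a stress gene that is induced by p53 and also in muscle without nerve supply, rose by 1.13 (SE 0.21, limma adjusted p = 0.0137). Its log2 value had a minimum of 8.72, a median of 9.30 and a maximum of 9.99 in KO, against 8.03, 8.22 and 8.48 in WT, and every KO library lay above every WT library, which held for 1.27% of tested genes and gives the smallest exact two-sided permutation p that 924 assignments allow, 0.00216. Polk, a DNA polymerase that copies past damage, fell by 0.50 (SE 0.14, adjusted p = 0.0491). Rrm2b, a subunit of ribonucleotide reductase, fell by 0.34 (SE 0.10, adjusted p = 0.0492). Both falls lay at the edge of the threshold. Without KO 2, 3 more of the related genes passed the test and none of the 9 called was lost. Over all tested genes, leaving out KO 2 raised the calls from 381 to 682 higher and from 376 to 833 lower. The 3 related genes are named after their values were seen. Ddb2, a sensor of damaged DNA, gave 0.23 (adjusted p = 0.0594) with all libraries and 0.25 (adjusted p = 0.0418) without KO 2, and its alternatives gave up to 0.14. Tnfrsf10b, a death receptor gene, gave 0.25 (adjusted p = 0.103) and 0.31 (adjusted p = 0.0355) in the same fits, with alternatives up to 0.211. Ep300, an acetyltransferase of p53 and histones from the list of regulators, gave -0.38 (adjusted p = 0.0762) and -0.46 (adjusted p = 0.0181), with alternatives up to 0.163.

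In the BCL2 family and caspases, 18 of 22 listed genes were tested, 1 rose and 1 fell, and the median was 0.01. Bcl2, which opposes Bax, fell by 0.57 (SE 0.16, limma adjusted p = 0.0466), and its KO libraries lay between 6.87 and 7.53, against 7.42 and 8.27 for WT libraries. The ranges of Bcl2 overlapped, with 4 of 6 KO libraries below all of WT. The deposited scale compresses low values, and on log2 of scaled reads with a pseudocount of 1 the difference of Bcl2 was -0.97, still called.

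Among other cyclin-dependent kinase inhibitors, cyclins and kinases, 18 of 21 were tested, 1 rose and none fell. It was Cdkn1c, which encodes p57, a relative of p21. Cdkn1c rose by 0.62 (SE 0.16, limma adjusted p = 0.0407), and its KO libraries from 8.85 to 9.91 lay above its WT libraries from 8.53 to 8.74. The SD was 0.45 in KO and 0.08 in WT, and KO 1 was the highest library of KO. Of 18 proliferation genes, 7 were tested and 1 rose, the mitotic kinase gene Aurka (0.58, SE 0.13, adjusted p = 0.0192). In the senescence and DNA damage list, 11 of 17 were tested and limma called none; 1 had an unadjusted p at or under 0.05. The genes of DNA repair Brca2 (0.20, adjusted p = 0.214) and Xrcc5 (-0.21, adjusted p = 0.234) had 2 of the 3 smallest p-values there.

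Taking the 6 related lists as 1 group, 107 genes were tested and 9 were called, or 8.41%. Of all tested genes, 6.20% were called in either direction. The lists too were chosen with earlier results of these data known, so these shares are descriptions. Over all tested genes, fits without 1 library called 106 to 682 higher and 88 to 833 lower, against 381 and 376 with all. Gadd45a kept its call when any 1 library was left out (limma adjusted p from 0.00098 to 0.041). Aurka lost it without KO 3, KO 6, WT 2 or WT 3 (up to 0.0527). Trp63 lost it without KO 1, KO 3, KO 4, WT 1, WT 2, WT 3, WT 5 or WT 6 (up to 0.0821), and Bcl2 without KO 1, KO 3, KO 4, KO 6, WT 1, WT 2, WT 3 or WT 6 (up to 0.111). Cdkn1c lost it without KO 1, KO 3, KO 6 or any WT library (up to 0.0973), and Rrm2b likewise (up to 0.112). Polk lost it without KO 1, KO 3, KO 4, KO 6 or any WT library (up to 0.111), and Rpl11 when any library other than KO 2, KO 4 or WT 4 was left out (up to 0.119).

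**Figure D4:**
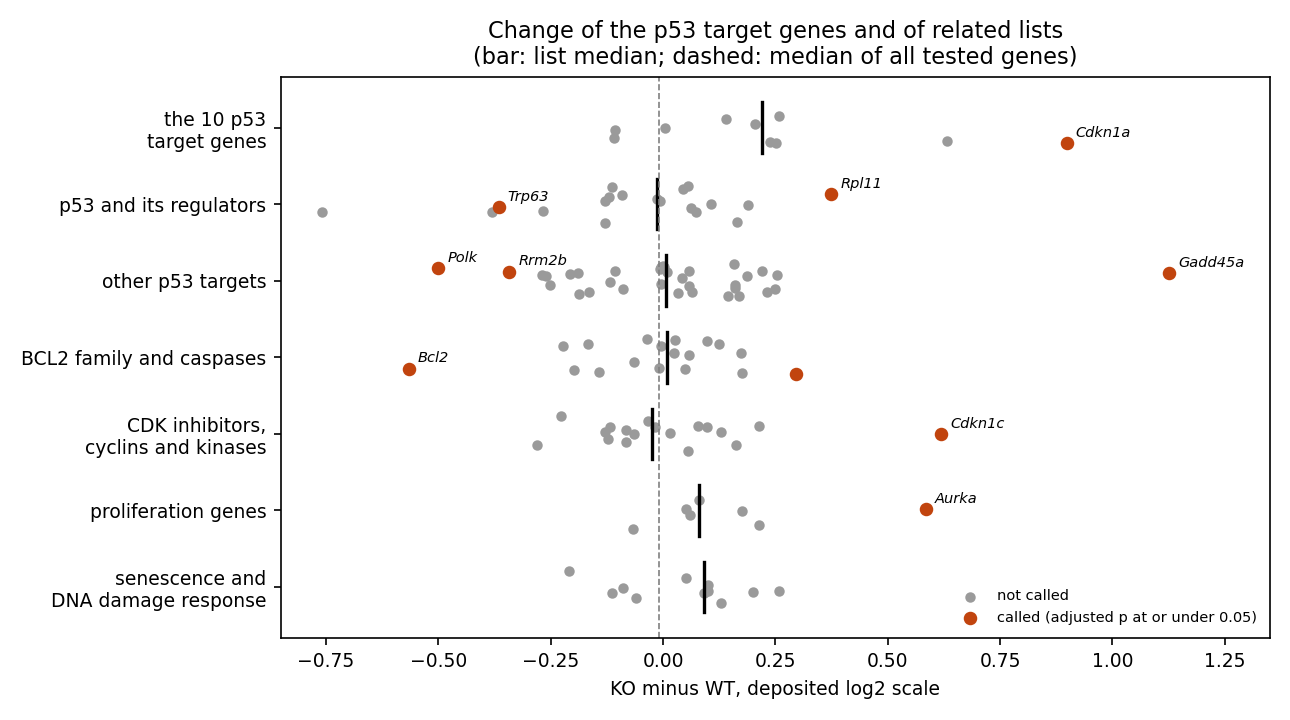
KO minus WT on the deposited log2 scale for every tested gene of the 10 p53 targets and of the 6 related lists, with called genes in colour and named where their values are given in the text, a black bar at each list's median and a dashed line at the median of all tested genes. The bar of the 10 targets lies at 0.22, and those of the related lists lie between -0.03 and 0.09.

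By the mean absolute difference over the 12 libraries, each gene taken relative to its own WT mean, the genes most like Cdkn1a were Ccdc141 (0.16), Ttc9 (0.18), Eef1a1 (0.21), Tnfrsf23 (0.21) and Uchl1 (0.21), on the log2 scale. All have higher KO means, since the measure follows the difference between the groups, so these are descriptions. Ccdc141, a coiled-coil protein gene, ranged over 6.98 to 7.80 in KO and 6.44 to 6.92 in WT. Tnfrsf23, a decoy receptor of the tumour necrosis factor family, ranged over 7.65 to 8.75 in KO and 7.29 to 7.56 in WT. In all 5 of these genes KO 2 was the lowest library of KO, as it was for Cdkn1a, which the measure also favours. Eef1a1, the translation elongation factor gene, has near-identical copies in the genome, and the division of shared reads is not known. Gadd45a stood at 0.33 and ranked 86 among tested genes. Of the remaining 9 of the 10 targets, the closest, Ccng1, stood at 0.45 and ranked 642, and the farthest, Eda2r, stood at 0.63.

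Summed markers of other cell types were compared by exact two-sided permutation of their log2 sums, without adjustment. In that test p was 0.0238 for slow-fibre, 0.0216 for endothelial and 0.0823 for smooth muscle markers. For the other types it ran from 0.158 for lymphocyte to 0.887 for satellite cell markers. The summed scaled reads of 6 slow-fibre markers, all tested and none called, with a median difference of -2.02, ran from 235 to 12051 in KO and from 4146 to 50671 in WT. Those of 7 endothelial markers ran from 3032 to 4771 in KO and from 3796 to 5119 in WT, with 1 marker, Flt1, called lower. Macrophage markers, 10 of 10 tested and none called, ran from 528 to 1532 in KO and from 421 to 1541 in WT. Smooth muscle markers, 6 of 6 tested with Myh11 called lower, ran from 4225 to 7411 in KO and from 5976 to 8335 in WT. Satellite cell markers, 5 of 6 tested with Cdh15 called lower, ran from 1690 to 2113 in KO and from 1661 to 1977 in WT. Adipocyte markers, 3 of 5 tested with Adipoq called lower, ran from 1258 to 2088 in KO and from 1466 to 2309 in WT. Schwann cell markers ran from 465 to 6451 in KO and from 1020 to 3448 in WT. Lymphocyte and neutrophil markers were near the floor, with sums up to 59.3 and 13.6 in KO and up to 86.2 and 9.18 in WT. Fibroblast markers, 7 of 7 tested and none called, ran from 5593 to 9675 in KO and from 4416 to 9721 in WT. In the lists fixed for these types, no marker stood at 0 in all libraries. Their part in the p53 target values was not tested.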

How the data were processed

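Bulk poly-A RNA of gastrocnemius from 6 KO and 6 WT mice was sequenced. Per the submitters' processing notes, fastp, STAR and featureCounts were used with the mm10 build; their versions were not given in the sources used here. The deposited table holds log2 values made by the authors, with a floor of 5.57 shared by all libraries, and the transformation is not named. The floor and the steps between low values fit a variance-stabilizing form, which was inverted to estimate reads; 89.3% to 93.7% of low values came out whole to within 0.1 read. These estimates are approximate. They served only the filter, the depth, percentages and ratios, levels per kb (GENCODE M21 exons), marker sums, reads of genes below the filter and alternatives. Depth was not given otherwise, and no counting intervals were made.

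A gene was tested if 6 or more libraries had 10 or more estimated reads, which kept 12213 of 24528. KO was set against WT on the deposited log2 values with limma 3.58.1 (R 4.3.3), with variance trend and robust moderation, without covariates, and a gene was called at a Benjamini-Hochberg adjusted p at or under 0.05 over all tested genes. The fit was first tested on simulated data. Exact permutation tests were two-sided. Alternatives changed the filter, scale, scaling, test, replicate block and gene length, and left out each library. All 10 target genes were named, with Ank2, Trp53, Mdm4, Gadd45a, every called gene of each related list or else the 3 with the smallest p, and the 5 genes nearest to Cdkn1a; some genes that the rule selects are not reported here. The members and lists were chosen with earlier results of these data known.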

Additional observations from a re-analysis of the deposited data

Results flagged for a closer look

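Among the 10 p53 target genes and the other genes named, 2 of 60 groups of 6 libraries held a library far from the others. The rule flags about 1 in 20 independent groups by chance. These groups share the same libraries, so that rate cannot be set against the 2 flags. Both were KO 2, in genes that had been chosen for their likeness to Cdkn1a. Ccdc141 had a log2 value of 6.98 in KO 2, while the other KO libraries lay between 7.62 and 7.80. Uchl1 had 6.92 in KO 2, while the other KO libraries lay between 7.56 and 7.90. Cdkn1a itself was lowest in KO 2 among KO libraries, at 8.77, without standing as far from the rest.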

How the results depend on the processing

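Of the 10 p53 targets, 1 was called; quantile normalization gave 2, and leaving out 1 library gave 0 to 3. The difference of Cdkn1a lay between 0.79 and 1.06 when 1 library was left out. Its call was lost in 6 of those 12 fits. Over all tested genes those 6 fits called 106 to 192 higher and 88 to 174 lower, against 381 and 376 with all libraries. Cdkn1a stayed called under the 11 alternatives that kept all libraries. Of the related genes, 9 were called; removing the trend on gene length gave 5, and leaving out 1 library gave 1 to 12. The fit without KO 2 gave the 3 and the 12, and over all tested genes it called 682 higher and 833 lower. Zmat3, whose difference was near 0, changed sign in 5 fits that left out 1 library, over a range of -0.051 to 0.046. The causes were not tested.

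The labels do not say whether replicate numbers pair the samples. The correlations of same-numbered deviations were 0.291, 0.19, -0.0816, -0.36, -0.0655 and -0.0348. For replicate 1 the same-numbered library was the best match in both directions, and for replicate 2 only from KO to WT. No other replicate had its own number as best match, and these values do not settle whether samples were paired. With the replicate block Cdkn1a gave 0.90 with limma adjusted p = 0.0362, the number of targets called was 1, and 7 related genes were called. Without the block, over all genes, 381 were called higher and 376 lower; with it, 357 and 456. Outside the fits that left out a library, Rrm2b lost its call under 8 alternatives, Polk under 5, Rpl11 and Bcl2 under 2, and Trp63 and Ttc9 under 1. With 6 libraries a group, the 95% intervals of the targets that were not called still spanned differences such as 0.40 for Bax and 1.20 for Phlda3.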

Other observations

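Many listed genes were too low for the test. Of the 18 proliferation genes, 11 did not pass the filter, and the KO mean was higher in 11 of 11. The other related lists went mostly the same way, with 2 of 2, 5 of 6, 3 of 4, 3 of 3 and 6 of 6 genes below the filter. Over all 6 related lists, these 11 included, the KO mean was higher in 30 of 32. Over the whole table it was higher in a smaller share, 65.7% of 5841 such genes above the floor in at least 1 library. The lists were chosen with earlier results of these data known, so these shares are descriptions. More genes lay above the floor in KO, 14836 to 15794, against 14746 to 15056 in WT (exact two-sided permutation p = 0.00866, n = 6 each). Summed scaled reads of the 11 proliferation genes were 84.7, 39.7, 83.6, 69.8, 47.6 and 93.8 in KO 1 to KO 6, against 35.4, 30.3, 21.8, 21.1, 74.1 and 35.1 in WT 1 to WT 6. The groups overlapped through WT 5, which exceeded 3 KO libraries, and KO 2 was again the lowest of KO. Birc5, which encodes survivin, had 3.63 to 18.5 estimated reads in KO and 0 to 2.39 in WT. Ccne1, a cyclin of the G1 to S transition, had 6.98 to 8.00 in KO and 2.00 to 4.01 in WT. Cdkn2a, which encodes the p53 activator Arf as well as a cyclin-dependent kinase inhibitor, had 6.10, 0, 20.4, 5.96, 23.7 and 47.8 in KO 1 to KO 6, against 0 to 6.22 in WT. These 3 genes were chosen after their values were seen. Their reads, unlike the sums above, are not scaled for depth, and how many other genes below the filter had groups apart was not counted. Depth ran from 13397586 to 18705727 estimated reads in KO and from 12283670 to 16907227 in WT, and its part in these low values was not tested.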
